A study of Mus musculus with 2 samples.

Results

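The tumour necrosis factor (TNF) superfamily was compared between mouse haematopoietic progenitors kept with or without a drug. The nuclear location of their Hoxa9 fusion depends on that drug, and nuclear Hoxa9 was not measured here. Members were the rows of the deposited table whose gene name starts with Tnfrsf (receptors) or Tnfsf (ligands) followed by a digit. There were 31 such rows among 23235, made up of 20 receptors and 11 ligands. The family was picked after its receptors had been seen higher in these same data, so its values are given as a description and nothing is inferred from how many members moved.

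TNF receptors are surface proteins with cysteine-rich repeats outside the cell, and most of their ligands are made as membrane proteins that assemble into trimers. Receptors with a death domain can recruit Tradd, Fadd and caspase 8, while many of the others bind TRAF adaptors and signal to NF-kB and MAP kinases. In bone marrow and blood the family is known for inflammation, for costimulation of lymphocytes and for the control of myeloid cell survival.

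The cells were C57B6 bone marrow depleted of lineage-positive cells and transduced with 2 retroviruses of the MIGR1 type, 1 for Flag-Meis1 and 1 for HA-Hoxa9-ER. ER marks a fusion whose nuclear location depends on 4-hydroxytamoxifen (4OHT). Both groups carried both viruses and had been transformed in culture with IL3 and 100 nM 4OHT. After washing, 1 group was kept for 72 h in 100 nM 4OHT and the other in ethanol (EtOH), the vehicle. The homeobox genes were driven by the retroviral vector and not by their own promoters, and Meis1 stayed on in both groups.

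Each group stood for 2 biological replicates, for which the authors deposited 1 FPKM value per gene (fragments scaled to transcript length and to the mapped total). The values therefore have no replicate error here, read depth is unknown, and every difference below compares 2 single values. "Rose" and "fell" mark rows that the authors' deposited table calls at a q-value of at most 0.05. Changes are log2((FPKM EtOH + 1)/(FPKM 4OHT + 1)), positive where EtOH was higher and compressed for low rows. Over 7820 rows of at least 5 FPKM in both groups the median change was -0.06, and -0.17 once the FPKM sums of the groups were made equal. In bulk RNA, a shift in the make-up of the culture and a change of RNA per cell cannot be told apart.

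Called receptors were all higher in EtOH, and called ligands changed in both directions. Of the 20 receptors 8 rose, 0 fell, 6 were tested without being called and 6 were not tested by the authors. Of the 11 ligands 3 rose, 2 fell, 1 was tested without being called and 5 were not tested. Over all 11865 tested rows the authors' table called 22.5%, with 12.0% higher and 10.5% lower in EtOH. Since the family was chosen on this contrast, its counts are set beside those shares without a reading. The summed level of the 20 receptors was 234 FPKM in 4OHT and 540 FPKM in EtOH, 2.31 times as high. The 11 ligands summed to 39.6 and 50.9 FPKM, 1.29 times as high.

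**Figure D1:**
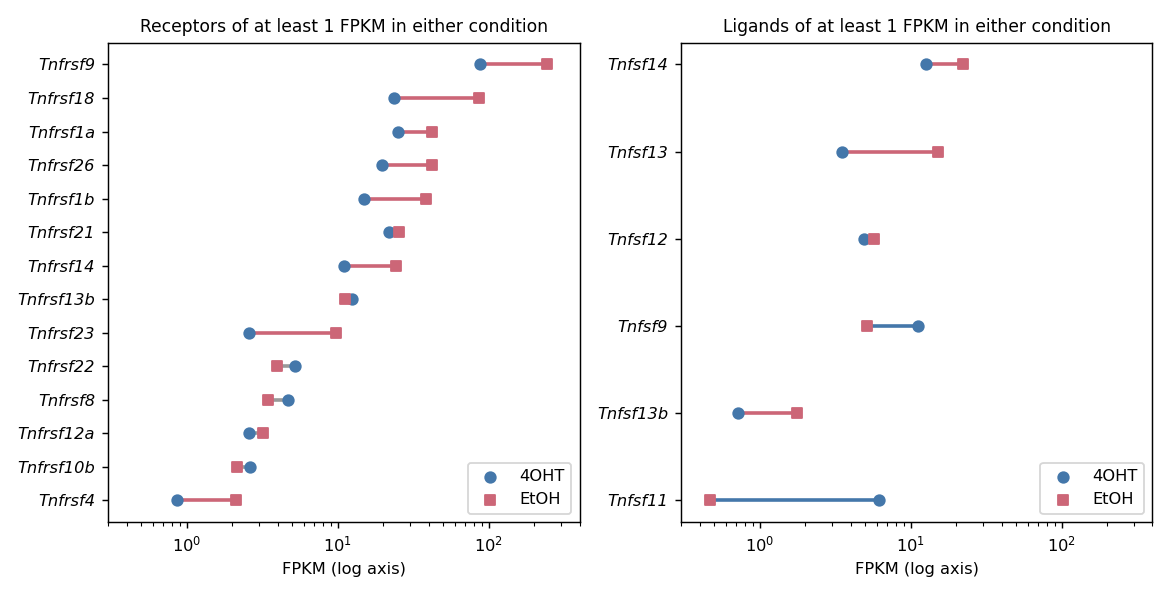
FPKM (log axis) of the 14 receptors and 6 ligands that reached 1 FPKM in either group. Circles are 4OHT and squares EtOH, each a single value, and the joining line is red where the deposited table calls the row higher, blue where it calls it lower and grey otherwise. Tnfrsf9 is the highest row in both groups, and Tnfsf11 shows the widest fall, from 6.16 to 0.471 FPKM.

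Tnfrsf9, Tnfrsf18 and Tnfrsf4 are costimulatory receptors best known from activated T cells, where they are called 4-1BB, GITR and OX40. Tnfrsf9 rose from 87.1 to 245 FPKM (change 1.48), with the deposited q-value listed at 0. It was the most abundant receptor in both groups and made up 37.2% of the summed receptor level in 4OHT and 45.4% in EtOH. Without it the receptor sum was 147 FPKM in 4OHT and 295 FPKM in EtOH, still 2.01 times as high. Tnfrsf18 rose from 23.4 to 86.2 FPKM, a change of 1.83, also with q listed at 0. It moved from the third to the second place among receptors and had the largest change of the 20 receptors on this scale. An antisense gene of GENCODE M21, Gm16008, covers 18.7% of its 50-base words, and the strand setting of the counting is not known here. Tnfrsf4, which lies 9.75 kb from Tnfrsf18 on chromosome 4, was far lower and rose from 0.856 to 2.12 FPKM (change 0.75, deposited q 0.0112). Defining T cell markers were at or near 0: Cd3e, Cd3g and Cd4 were listed at 0 in both groups. The whole list of 8 T and NK cell markers summed to 3.68 FPKM in 4OHT and 1.78 in EtOH, most of it from the kinase gene Lck.

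The receptors of TNF itself both rose. Tnfrsf1a, the widely expressed death domain receptor of TNF, rose from 25.1 to 42.3 FPKM (change 0.73, deposited q 2.32e-05). Tnfrsf1b, the second TNF receptor, which has no death domain, rose from 14.9 to 38.4 FPKM (change 1.31, q listed at 0). Tnfrsf1a stood well above Tnfrsf1b in 4OHT, and in EtOH their levels were nearly the same. Tnfrsf14, the herpesvirus entry mediator that binds Tnfsf14, rose from 10.9 to 24.5 FPKM (change 1.09, deposited q 2.69e-06).

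The other death domain receptors did not pass. Tnfrsf21, known as death receptor 6, was at 21.8 and 25.3 FPKM in 4OHT and EtOH (change 0.20, deposited q 0.37). Tnfrsf10b, the mouse death receptor for TRAIL, was at 2.60 and 2.16 FPKM (change -0.19, q 0.56). Tnfrsf25, the remaining death domain receptor, was at 0.0814 FPKM in 4OHT, listed at 0 in EtOH and not tested. Of the 4 death domain receptors, then, Tnfrsf1a alone was called. Among the 12 receptors grouped as binding TRAF adaptors without a death domain, 5 rose, 0 fell, 3 were not called and 4 were not tested.

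Those not called among the TRAF-binding receptors had small changes of either sign. Tnfrsf13b, the receptor TACI of B cell growth factors, was at 12.4 and 11.2 FPKM (change -0.13, deposited q 0.786). Tnfrsf8, or CD30, was at 4.68 and 3.45 FPKM (change -0.35, q 0.287). It lies 22.1 kb from Tnfrsf1b, which rose. Tnfrsf12a, the receptor Fn14, was at 2.60 and 3.22 FPKM (change 0.23, q 0.845). The q-values nearest to the call on either side were 0.0112 for Tnfrsf4 and 0.287 for Tnfrsf8. A threshold of 0.01 would leave Tnfrsf4 uncalled. The locus entry of Tnfrsf12a is shared with 3 other rows, among them Hcfc1r1 at 18.4 and 26.7 FPKM and Thoc6 at 16.3 and 14.7 FPKM, but none of its 2111 words of 50 bases in GENCODE M21 transcripts occurs in another gene.

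Tnfrsf26, Tnfrsf22 and Tnfrsf23 form a mouse cluster on chromosome 7 that spans 78.2 kb, and they did not move as a block. Tnfrsf26 rose from 19.5 to 41.9 FPKM (change 1.06, deposited q 2.51e-11). Tnfrsf23, a decoy receptor for TRAIL, rose from 2.59 to 9.72 FPKM (change 1.58, q listed at 0). Tnfrsf22, the related decoy that lies between them, was at 5.18 and 3.99 FPKM (change -0.31, q 0.315). The order of the decoys thus turned over, with Tnfrsf22 above Tnfrsf23 in 4OHT and below it in EtOH. Of the 50-base words in transcripts of Tnfrsf23, 18.0% also occur in Tnfrsf22, and 17.3% of those of Tnfrsf22 occur in Tnfrsf23. Part of their reads could therefore be assigned to either gene. In all, 27.4% of the words of Tnfrsf22 are shared, 8.9% with Gm47486, which has no row of its own. The level of Tnfrsf22 and the order of the decoys are thus uncertain. Taken as a sum, Tnfrsf22 and Tnfrsf23 went from 7.77 to 13.7 FPKM, 1.76 times as high.

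**Figure D2:**
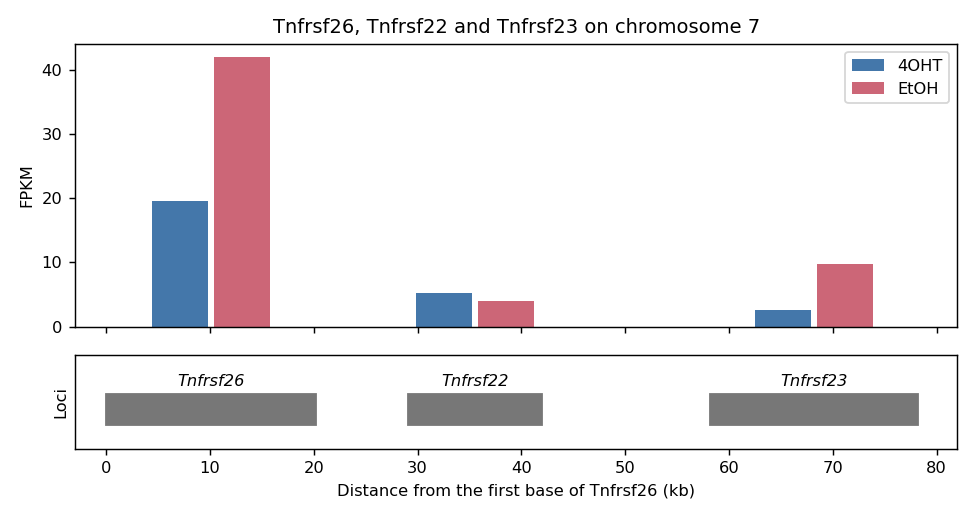
Levels of the chromosome 7 receptor cluster, as bars of FPKM from 0 (1 value per group), above the loci drawn to scale by distance from the first base of Tnfrsf26. The outer genes Tnfrsf26 and Tnfrsf23 are higher in EtOH, and Tnfrsf22 between them is at 5.18 and 3.99 FPKM.

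Receptors under 1 FPKM in both groups numbered 6, none above 0.229 FPKM, and all were left untested by the authors. Tnfrsf17 and Tnfrsf19 were listed at 0 in both groups. Tnfrsf13c and Tnfrsf25 were listed at 0 in EtOH. Tnfrsf11a, the receptor RANK, was at 0.0661 and 0.0409 FPKM, and Tnfrsf11b, its secreted decoy counterpart osteoprotegerin, at 0.00733 and 0.229 FPKM. The deposited p-values of Tnfrsf11b and Tnfrsf25 were 0.0163 and 0.0421, but their q-values were set to 1. Tnfrsf13c and Tnfrsf17 are receptors of B-lineage cells for Tnfsf13b. The B cell markers Ms4a1, Pax5 and Ebf1 were likewise listed at 0 in both groups.

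The ligands that rose were Tnfsf13, Tnfsf13b and Tnfsf14, and Tnfsf13 and Tnfsf13b are close relatives that bind the same receptors, Tnfrsf13b and Tnfrsf17. Tnfsf13, or APRIL, rose from 3.49 to 15.1 FPKM (change 1.84, deposited q 1.03e-13). Tnfsf13b, or BAFF, rose from 0.715 to 1.77 FPKM (change 0.69, q 0.00421). Tnfsf14, or LIGHT, rose from 12.6 to 22.2 FPKM (change 0.77, q 7.68e-05) and was the most abundant ligand in both groups. Tnfsf12, or TWEAK, was at 4.93 and 5.74 FPKM (change 0.19, q 0.742). Tnfsf12 and Tnfsf13 share 1 locus entry with BC096441, which was at 0.989 and 1.13 FPKM and was not called. The fused transcript gene Tnfsfm13, which has no row of its own, holds 46.8% of the 50-base words of Tnfsf12 and 57.3% of those of Tnfsf13. The split between them is therefore uncertain, and their sum went from 8.41 to 20.9 FPKM, 2.48 times as high.

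Tnfsf11 and Tnfsf9 fell. Tnfsf11, or RANKL, the cytokine that drives osteoclast formation, fell from 6.16 to 0.471 FPKM, a change of -2.28 with q listed at 0. Its level in 4OHT was 13.1 times that in EtOH. The size of its change depended on the pseudocount, at -3.45 with 0.1 FPKM and -1.03 with 5 FPKM, and with the latter Tnfrsf18 (1.68), Tnfrsf9 (1.44), Tnfsf13 (1.25) and Tnfrsf1b (1.13) moved further. Tnfsf9, the ligand of Tnfrsf9, fell from 11.2 to 5.17 FPKM (change -0.98, deposited q 0.00273). Its locus entry also holds Gm11110, which shares 11.5% of its 50-base words and was at 6.75 and 7.96 FPKM without being called. Together Tnfsf9 and Gm11110 went from 17.9 to 13.1 FPKM. The remaining ligands, Tnfsf4, Tnfsf8, Tnfsf10, Tnfsf15 and Tnfsf18, lay at or under 0.369 FPKM, and Tnfsf18 was listed at 0 in both groups.

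**Figure D3:**
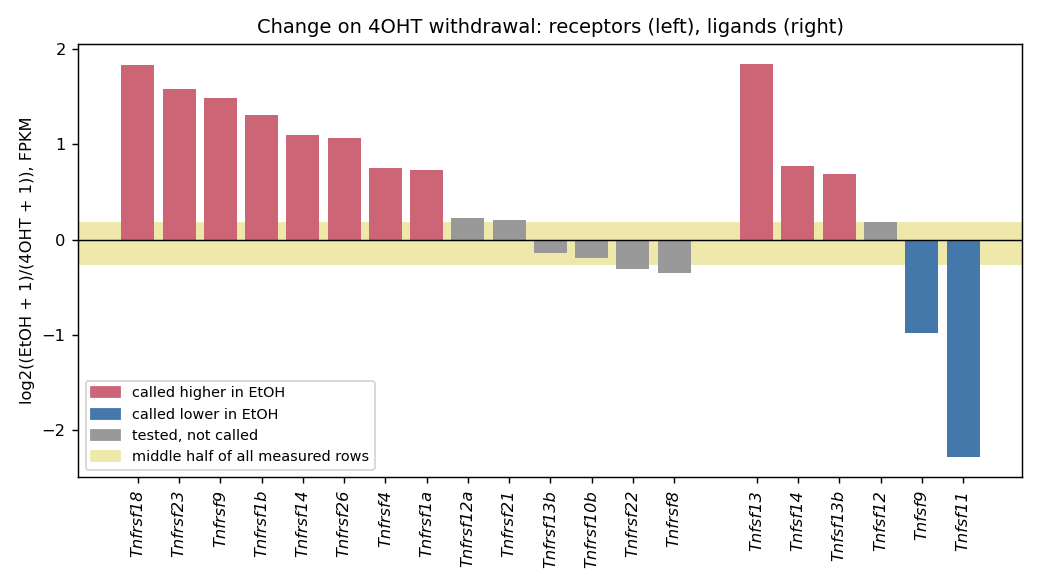
Change of each member of at least 1 FPKM in either group, as log2((EtOH + 1)/(4OHT + 1)) of FPKM, receptors on the left and ligands on the right. Bars start at 0, colours give the deposited call, and the pale band holds the central 50% of all 11022 rows of that level. The 8 receptors called higher lie between 0.73 and 1.83, and the ligands run from -2.28 to 1.84.

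Promoter sequence was read for the 3 called receptors with the largest changes and for Tnfsf11, the ligand with the largest change, each ranked with a pseudocount of 1 FPKM, to show what lies before genes that moved apart. The sequences are RefSeq's (GRCm38.p6, not the mm9 build of the expression table), 250 bases before each start, 5′ to 3′ on the gene's strand. Capitals mark matches to the motifs spelled out in the next paragraph. The windows are chr4:156026072-156026321 (+) for Tnfrsf18, chr7:143685876-143686125 (-) for Tnfrsf23, chr4:150919905-150920154 (+) and chr4:150927749-150927998 (+) for the 2 listed starts of Tnfrsf9, and chr14:78308044-78308293 (-) for Tnfsf11.
Tnfrsf18: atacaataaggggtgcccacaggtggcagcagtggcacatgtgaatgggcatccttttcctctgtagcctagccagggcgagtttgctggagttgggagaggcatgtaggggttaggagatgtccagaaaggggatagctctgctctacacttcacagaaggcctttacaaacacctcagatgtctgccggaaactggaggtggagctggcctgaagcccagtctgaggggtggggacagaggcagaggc
Tnfrsf23: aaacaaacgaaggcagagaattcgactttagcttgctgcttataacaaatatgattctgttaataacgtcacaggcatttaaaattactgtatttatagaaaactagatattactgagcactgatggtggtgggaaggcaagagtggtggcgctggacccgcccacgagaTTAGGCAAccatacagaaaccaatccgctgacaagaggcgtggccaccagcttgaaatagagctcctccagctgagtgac
Tnfrsf9, upstream start: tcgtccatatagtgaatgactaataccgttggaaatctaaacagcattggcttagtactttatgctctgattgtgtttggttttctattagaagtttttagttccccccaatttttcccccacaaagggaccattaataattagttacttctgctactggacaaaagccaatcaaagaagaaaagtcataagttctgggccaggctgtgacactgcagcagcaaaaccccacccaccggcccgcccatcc
Tnfrsf9, downstream start: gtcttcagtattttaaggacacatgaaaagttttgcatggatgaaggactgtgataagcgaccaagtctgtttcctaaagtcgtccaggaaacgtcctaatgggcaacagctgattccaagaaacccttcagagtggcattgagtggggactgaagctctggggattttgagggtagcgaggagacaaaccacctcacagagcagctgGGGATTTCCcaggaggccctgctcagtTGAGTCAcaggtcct
Tnfsf11: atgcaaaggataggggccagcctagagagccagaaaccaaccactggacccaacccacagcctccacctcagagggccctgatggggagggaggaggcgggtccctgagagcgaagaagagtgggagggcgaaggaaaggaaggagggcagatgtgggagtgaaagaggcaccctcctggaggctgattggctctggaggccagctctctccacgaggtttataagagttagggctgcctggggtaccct

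The motifs searched on both strands were GGGNNTTCC for NF-kB, TGANTCA for AP-1, TTGCNNAA for C/EBP, TGATTTAT for Hox with Pbx, TGACAG for Meis, GAGGAAGT for PU.1 and TGTGGTT for Runx, and their spellings were chosen with the members' values known. The downstream Tnfrsf9 window held an NF-kB match 42 bases before the start and an AP-1 match 15 bases before it. The NF-kB motif occurs in 4.98% and the AP-1 motif in 6.75% of all 32851 promoter windows of that length. Tnfrsf23 held the C/EBP motif 80 bases before its start, and that motif is in 9.56% of all windows. The upstream Tnfrsf9 window and those of Tnfrsf18 and Tnfsf11 held none of the 7 motifs.
Of the 31 members 24 had a promoter entry, 7 of them receptors that rose. These 24 genes had 28 windows, and a gene is counted if any of its windows matched. The shares of all windows are per single window, so the 2 are not on the same footing. The NF-kB motif was present in 2 of the 24 genes, Tnfrsf9 and Tnfrsf13b. AP-1 matches were found in 5 genes, which were Tnfrsf8, Tnfrsf9, Tnfsf13, Tnfsf13b and Tnfsf14. The Meis motif was in 5 genes, among them Tnfsf14, and is in 15.9% of all windows. The Hox with Pbx motif was in none of the 24 and is in 0.837% of all windows. PU.1 and Runx motifs were in 1 gene each, Tnfsf18 and Tnfrsf13c, and are in 2.44% and 4.40% of all windows. These matches describe letters in a window and show nothing about binding.

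Several rising receptors share a chromosome. Chromosome 4 holds 7 of the 20 receptors, and 5 of them rose, namely Tnfrsf1b, Tnfrsf9, Tnfrsf14, Tnfrsf4 and Tnfrsf18. Among all 737 tested rows on that chromosome 12.1% were called higher, close to the 12.0% of the whole table. In mm9 coordinates these loci lie at 144802271 to 144836773 for Tnfrsf1b, 150294264 to 150320211 for Tnfrsf9, 154296319 to 154302186 for Tnfrsf14, 155387804 to 155390698 for Tnfrsf4 and 155400451 to 155403000 for Tnfrsf18. The ligands on chromosome 17 went opposite ways, with Tnfsf9 at 57231446 to 57247180 lower and Tnfsf14 at 57328915 to 57333609 higher. Between them lies Cd70, another ligand of the family, which was listed at 0 in both groups. Tnfsf11 stands apart from the other members on chromosome 14, at 78677253 to 78707850.

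In most pairs of ligand and receptor, the receptor was more abundant than its ligand in these cells. Some receptors count in more than 1 pair. Pairs with both values under 1 FPKM, such as Cd40lg and Cd40, are included, though such differences could not be judged. Of 25 textbook pairs of ligand and receptor, the receptor had the higher level in 18 in 4OHT and 16 in EtOH, and 8 had both partners at 1 FPKM or more in 4OHT and 9 in EtOH. For Tnfsf9 and Tnfrsf9 the receptor stood at 7.78 times its ligand in 4OHT and at 47.4 times in EtOH, since the receptor rose and the ligand fell. Tnfsf14 and Tnfrsf14 rose together, with the receptor at 0.867 and 1.10 times the ligand. Tnfsf13 passed its receptor Tnfrsf13b, which stood at 3.54 times the ligand in 4OHT and 0.739 times in EtOH. These ratios carry the uncertain split of Tnfsf13 from Tnfsf12, and those for Tnfsf9 the words it shares with Gm11110. Tnfrsf18 had no measured partner, because Tnfsf18 was listed at 0 in both groups. Tnfsf11 was the reverse case, a ligand at 6.16 FPKM in 4OHT whose receptors Tnfrsf11a and Tnfrsf11b were both near 0 there. Tnfsf10, or TRAIL, was at 0.369 and 0.183 FPKM, below each of its receptors Tnfrsf10b, Tnfrsf22 and Tnfrsf23.

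**Figure D4:**
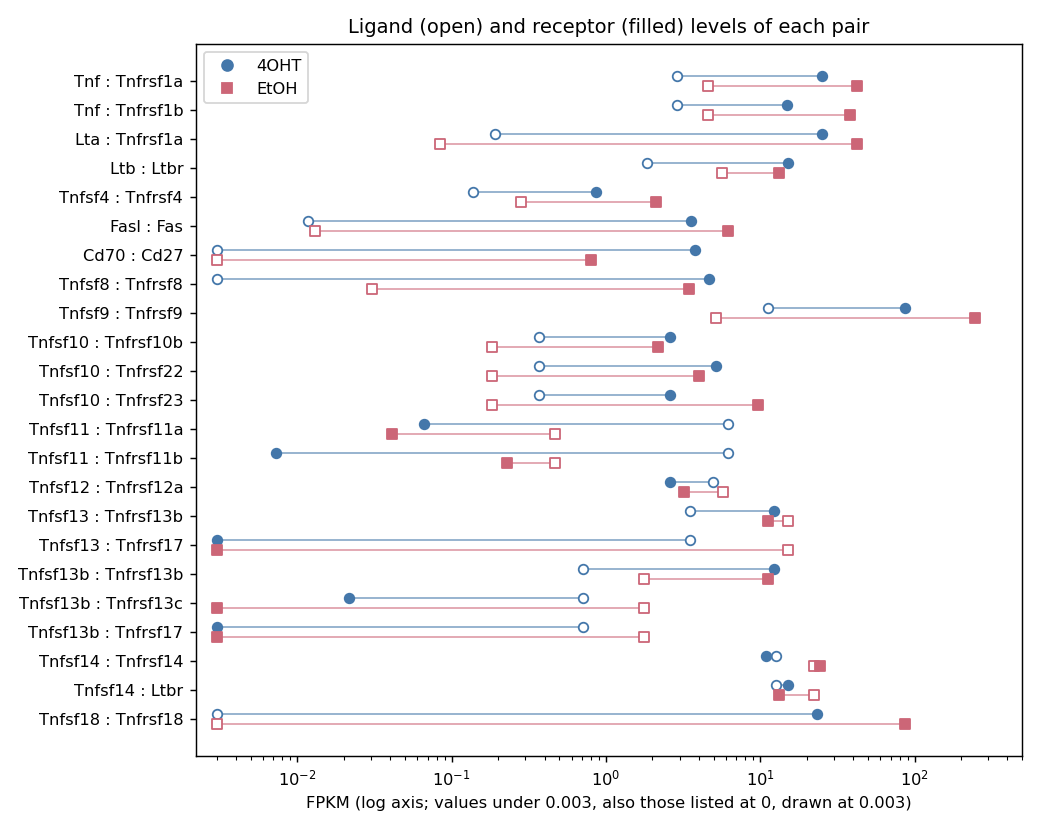
Levels of ligand (open) and receptor (filled) for each pair with a value of at least 1 FPKM, on a log axis of FPKM, with 4OHT as blue circles and EtOH as red squares. Values listed at 0 are drawn at the left edge. The Tnfsf9 and Tnfrsf9 lines lengthen in EtOH, to 5.17 and 245 FPKM, while Tnfsf14 and Tnfrsf14 shift to the right together.

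Among members of the superfamily that carry other names, 6 were tested, and 2 of these were called, Cd27 lower and Ltb higher in EtOH. The share called over all tested rows was 22.5%. Of 8 such receptors 0 rose, 1 fell, 3 were tested without being called and 4 were not tested. The one that fell was Cd27, a lymphocyte costimulatory receptor, from 3.78 to 0.797 FPKM (change -1.41, deposited q 0.0323). Fas, the death receptor for Fas ligand, was at 3.58 and 6.19 FPKM (change 0.65, q 0.19). Ltbr, the lymphotoxin beta receptor, was at 15.2 and 13.1 FPKM (change -0.19, q 0.493), and Relt at 14.4 and 18.3 FPKM (change 0.33, q 0.129). None of the superfamily receptors outside the Tnfrsf naming was called higher. Of the 7 other ligands, Ltb, lymphotoxin beta, rose from 1.84 to 5.61 FPKM (change 1.22, q 1.88e-05). Tnf was at 2.88 and 4.62 FPKM and was not called (change 0.53, q 0.0665), and the remaining 5 were not tested.

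Downstream of the receptors, the called adaptor and relay genes were all higher in EtOH, and the called feedback genes were higher with 1 exception. Their counts stand beside the 22.5% called over all tested rows, 12.0% higher and 10.5% lower. Of 23 adaptor and death signalling genes 4 rose and 0 fell, with a median change of 0.09 over the 22 of at least 1 FPKM, against -0.06 over all 11022 rows of that level. Traf1, an adaptor that is itself a target of NF-kB, rose from 0.829 to 2.62 FPKM (change 0.99), and Traf3, a brake on noncanonical NF-kB signalling, from 7.87 to 13.1 FPKM (0.67). Tank (0.54) and the ubiquitin ligase gene Birc3 (0.46) rose as well. Casp8, Fadd, Tradd and Ripk1, which form the death-inducing complexes, were not called and lay between -0.37 and 0.25.
Of 24 NF-kB and MAP kinase relay genes 3 rose and 0 fell, with a median of 0.06, so the share that rose was close to the 12.0% of all tested rows. These were Jun (0.68), Map3k14, the kinase NIK (0.43), and Tab2 (0.40). The NF-kB subunit genes Nfkb1, Nfkb2, Rel, Rela and Relb were not called, with changes from -0.32 to 0.45.
Of 19 feedback inhibitors and TNF-induced genes 5 rose, 1 fell, 12 were not called and 1 was not tested, and the median over 17 was 0.27. Nfkbia, the inhibitor IkB alpha, rose from 12.98 to 28.6 FPKM (change 1.08), and Bcl3 from 1.00 to 2.95 FPKM (0.98). Ier3 rose from 33.7 to 62.3 FPKM (0.87), Tnfaip2 from 23.1 to 42.2 FPKM (0.84) and Tnfaip3, the deubiquitinase A20, from 2.22 to 4.47 FPKM (0.76). Sod2, a mitochondrial superoxide dismutase, fell from 20.6 to 14.9 FPKM (-0.45).

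**Figure D5:**
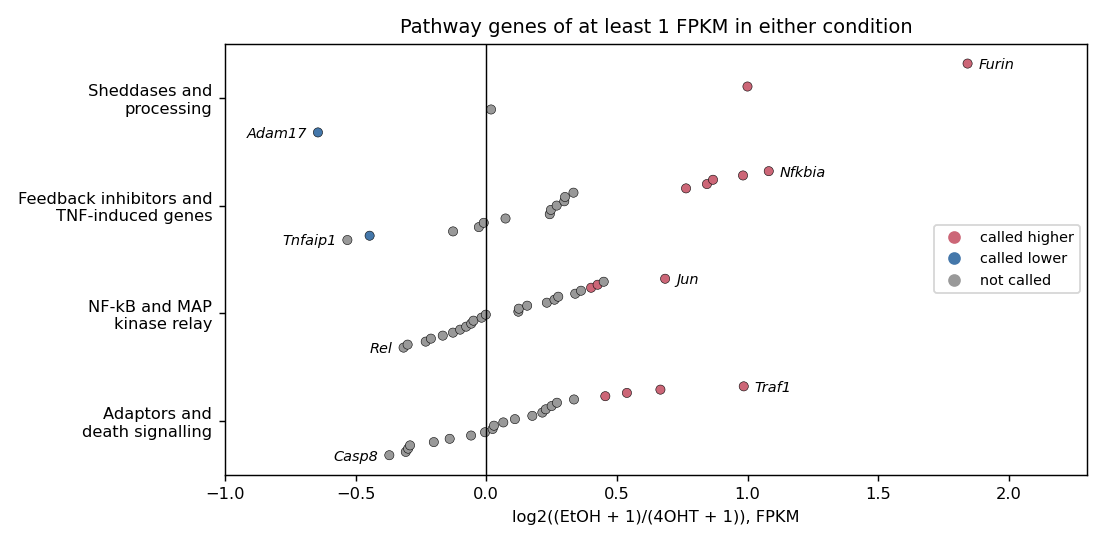
Changes of pathway genes of at least 1 FPKM in either group, as log2((EtOH + 1)/(4OHT + 1)) of FPKM, by list. Each point is 1 gene, ordered by its change within the list and coloured by the deposited call, and the outermost gene on each side is named. Furin, at 1.84, lies farthest to the right and Adam17, at -0.64, farthest to the left.

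Enzymes that process TNF ligands and receptors moved in opposite directions. Adam17, the protease that releases TNF and sheds TNF receptors, fell from 41.6 to 26.3 FPKM (change -0.64, deposited q 0.000135). Rhbdf2, a cofactor that Adam17 needs to mature, rose from 8.71 to 18.4 FPKM (1.00, q 2.82e-09). Furin, a convertase that cleaves Tnfsf13 and Tnfsf13b among many other proteins, rose from 85.8 to 309.9 FPKM (1.84, q listed at 0). Adam10, a related sheddase, was at 45.9 and 46.5 FPKM. These RNA levels do not give the amount of receptor on the surface or of ligand released.

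Markers of maturing granulocytes moved with the receptors. The counts below stand beside the 12.0% of all tested rows called higher and the 10.5% called lower in EtOH. All 11 neutrophil markers rose and their summed level went from 141 to 16300 FPKM. Most of the EtOH sum came from S100a8, S100a9 and Ngp, at 7149, 6386 and 2225 FPKM. Of 8 eosinophil markers 7 rose, with sums of 135 and 4697 FPKM. All 8 tested markers of the 10 for basophils and mast cells rose, with sums of 1282 and 4808 FPKM. The 9 monocyte and macrophage markers, of which 5 rose and 1 fell, summed to 259.8 and 177 FPKM. The 6 progenitor markers summed to 453 and 475 FPKM, with 2 higher and 2 lower, so the near-equal sums hide opposite moves. Cd34 fell from 124 to 45.8 FPKM and Sox4 from 9.54 to 2.38 FPKM. Gata2, also counted among the basophil and mast cell markers, rose from 71.1 to 122 FPKM and Spi1 from 77.5 to 167 FPKM. Kit and Myb were not called. Genes of the labelled progenitor type were thus expressed in both groups. The part of these cell types in the receptor values was not tested.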

How the data were processed

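RNA was column-purified with DNase digestion and made into TruSeq libraries, per the labels' protocols. Cuffdiff 2.0.2, CASAVA 1.8.2 and Bowtie2 2.0.0.7 were used on mm9, per the submitters' processing notes, and the annotation, strand setting and library scaling were not given in the sources used here. Per the file headers, the authors gave FPKM per group, with a p-value and a q-value for EtOH against 4OHT, and a ratio of EtOH over 4OHT, which matched the FPKM values within 1% for all members and was not used. With 1 value per group, no test was added, and calls are the authors' at q of at most 0.05 among 11865 tested rows. Members and lists were chosen with earlier results of these data known. The rule for named genes took every member of at least 1 FPKM and up to 4 called genes per list and direction. Tnfaip3, Cd70, the costimulatory and checkpoint genes outside the superfamily, and pathway genes given as not called were named after their values were seen. A gene of the fixed lists is not reported here. Older symbols were matched through RefSeq names. Deposited starts count from 0 (end minus start equals the RefSeq length for 7152 genes) and are printed from 1. Shared 50-base words were sought on both strands of GENCODE M21 transcripts. Alternatives changed the pseudocount, level filter, scaling and call rule. Python 3.11.15 and pandas 2.3.3 were used, and the steps were tested on simulated data.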

Additional observations from a re-analysis of the deposited data

How the results depend on the processing

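Each of the 20 members of at least 1 FPKM kept the sign of its change under all 4 settings of pseudocount and scaling. Among called members the size moved by over 1.5 times for 4, which with a pseudocount of 5 FPKM were at -1.03 (Tnfsf11), 0.28 (Tnfrsf4), 0.25 (Tnfsf13b) and 0.96 (Tnfrsf23). Counts of called members stayed within 1.5 times of those reported at q of at most 0.01, with an added 1.5-fold difference, and among rows of at least 1 FPKM. At q of at most 0.01 the receptors called higher went from 8 to 7, with Tnfrsf4 lost. Medians moved with the settings: over the 14 receptors the median of 0.74 became 0.92 and 0.47 with pseudocounts of 0.1 and 5 FPKM, 0.64 once the FPKM sums of the groups were made equal, 0.79 with a median log2 ratio set to 0, 0.26 over all rows above 0 and 1.08 over rows of at least 5 FPKM. For the 6 ligands 0.44 became, in the same order, 0.51, 0.18, 0.35, 0.49, 0.11 and 0.19. Members that reach 1 FPKM through the higher group had to differ, so these medians support nothing. Equal FPKM sums turned the median of the receptors with other names from 0.07 to -0.046, that of the adaptor genes from 0.09 to -0.023 and that of the relay genes from 0.06 to -0.0496. That scaling multiplied every EtOH value by 0.9211. The median over the 7820 rows of at least 5 FPKM in both groups likewise went from -0.06 to -0.17. No paired analysis was possible because each group has 1 value that already joins its replicates, and no replicate could be left out. FPKM gives no read totals, so differences among members under 1 FPKM could not be judged.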

Other observations

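Costimulatory and checkpoint genes outside the TNF superfamily, a list of 20 chosen after the members' values were seen, also changed in both directions. By the calls of the authors' deposited table, 6 rose, 3 fell, 4 were tested without being called and 7 were not tested, beside 22.5% called over all tested rows, 12.0% higher and 10.5% lower. Cd226 rose from 0.308 to 11.1 FPKM and its relative Tigit from 0.462 to 2.87 FPKM, while Pvr, the shared ligand of both, fell from 15.3 to 11.2 FPKM. Havcr2, or TIM-3, rose from 6.65 to 15.8 FPKM, and Lgals9, a galectin that binds it, fell from 194 to 119 FPKM. Btla, an inhibitory partner of Tnfrsf14, fell from 2.02 to 0.478 FPKM, opposite to Tnfrsf14 itself. Cd28 rose from 1.43 to 3.49 FPKM, and Cd274, or PD-L1, from 11.5 to 17.98 FPKM.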
